A study of Saccharomyces cerevisiae with 4 samples.

Results

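Total messenger RNA of a yeast hybrid was compared with that of the haploid RM strain, gene by gene, to show where a diploid carrying an RM genome next to a BY genome differs from cells carrying the RM genome alone. The hybrid, strain WL201, is BY4741xRM11-1alpha, a diploid of mating type a/alpha that joins the genome of a laboratory strain to that of a strain of vineyard origin. The RM parent was measured inside a co-culture (BY4741+RM11-1a) of haploid cells labelled MAT-a, from which the RM reads were taken apart at sites where the strains differ in sequence. For each of 4442 orthologous gene pairs the level in the hybrid was the sum of BY and RM reads, and the level in the RM parent was the RM reads of the co-culture, each scaled by the total of its own column. All 4442 pairs of the series entered, from 4 of 4 libraries (2 per culture) and from 6 of the 8 allele columns. The BY reads of the co-culture, called the BY parent, are given as description only.

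Both cultures grew at 30 °C with shaking at 250 rpm, from an OD600 of 0.1 to an OD600 of 1.0. The groups differed in more than the presence of a BY genome. The hybrid was diploid and a/alpha while the RM parent was haploid and of mating type a, the RM genome of the hybrid came from RM11-1alpha and not from RM11-1a, and the RM parent grew beside BY cells. These differences cannot be told apart in this comparison. Each culture was 1 hybrid strain or 1 pair of parents, and the replicate cultures were technical per the labels' protocols, so p-values measure the spread between libraries of the same strains. Levels are relative to the messenger RNA of each column, and in such bulk samples fewer cells with a transcript cannot be told from less transcript per cell.

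In haploid yeast the mating type locus sets which mating genes are on: cells of mating type a make a-factor and the receptor for alpha-factor, and both haploid types make the shared signalling proteins of the pheromone response. In a/alpha diploids the alpha2 protein, with Mcm1, represses a-specific genes, and the a1-alpha2 heterodimer represses haploid-specific genes. A hybrid also carries 2 alleles of each gene in a shared nucleus, so a transcript that is scarce in one parent can be supplied by the other allele, or can change on both alleles when a regulator differs.

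The hybrid libraries held 2809121 and 4183129 reads on the scored sites, and the RM columns held 1358571 and 1587185. Median reads per gene were 213 and 324 for the hybrid and 103 and 123 for the RM parent. The unit of level is CPM, the reads of a gene scaled to the total of its column; values are not divided by the number of scored sites, so levels of different genes are not compared. A gene counted at 0 could be as high as the level of 3 reads, which was 1.07 and 0.717 CPM in hybrid libraries 1 and 2 and 2.21 and 1.89 CPM in the RM columns, for counting error only. The replicates of each group differed by more than counting noise, with a chi-square per degree of freedom of 2.77 in the hybrid and 2.04 in the RM parent.

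Of 4275 genes with enough reads to test, 1382 passed an adjusted p of 0.05 (32.3%) in the quasi-likelihood test of edgeR, adjusted by the Benjamini-Hochberg method. Of these, 755 were higher in the hybrid (17.7%) and 627 were lower (14.7%). Most differences were small: 248 genes were higher and 239 lower by at least 1.5-fold, 115 and 91 by at least 2-fold, and 13 and 11 by at least 8-fold. The median log2 difference over all genes, hybrid over RM parent, was 0.02, with quartiles of -0.20 and 0.23. DESeq2 on the same column totals called fewer genes, 404 higher (9.45% of 4275) and 337 lower (7.88%). The numbers of DESeq2 calls are therefore given beside a gene list wherever they differ from the first test by more than 1.5 times.

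**Figure D1:**
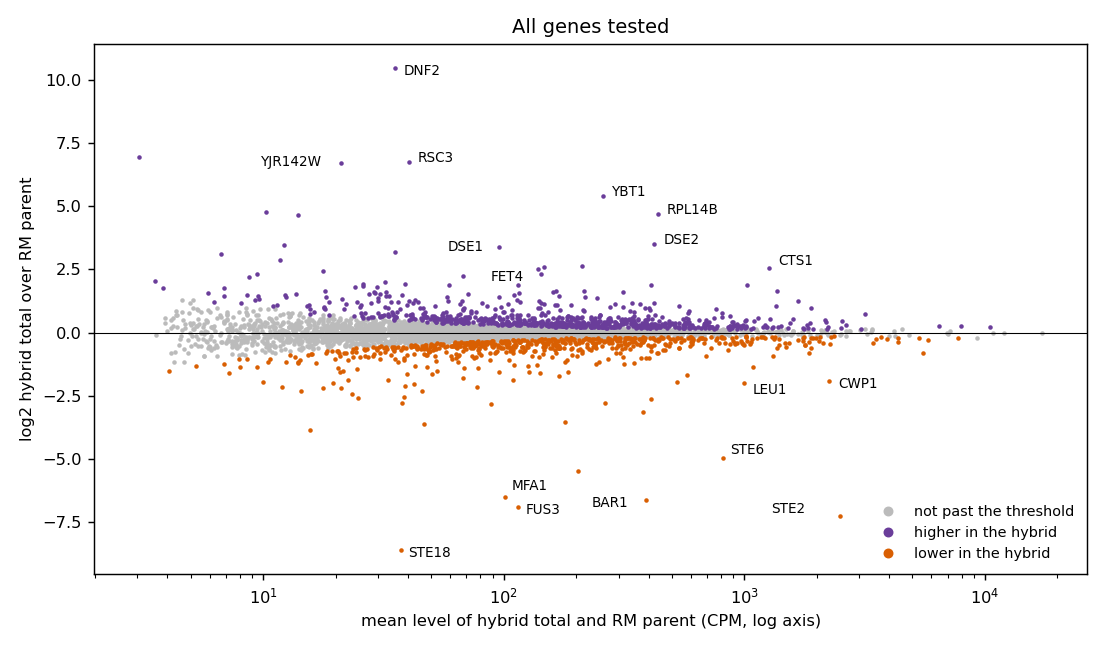
Log2 level of the hybrid over the RM parent (vertical axis) against the mean of both levels in CPM (horizontal log axis) for the 4275 genes tested, each gene a point, with genes past an adjusted p of 0.05 in colour. Mating genes such as STE2, FUS3 and BAR1 lie at the bottom, and DNF2, RSC3, YBT1 and RPL14B at the top; the plotted values of DNF2, RSC3, YJR142W and STE18 rest on 0 to 2 reads in one group and depend on the prior count of the fit.

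The a-specific genes were the group with the deepest fall: all 5 that could be tested were lower in the hybrid, with a median log2 difference of -6.51 beside 0.02 for all genes. STE2, the alpha-factor receptor, had 32.8 and 32.3 CPM in the hybrid libraries and 5008.9 and 4943.3 CPM in the RM columns. The groups lay far apart, and the difference was -7.26 ± 0.08 (log2, SE, adjusted p = 4.75e-29), or 153-fold. STE6, the exporter of a-factor, had 51.3 and 50.9 CPM against 1552.4 and 1599.7 CPM, a log2 difference of -4.95 ± 0.08 (adjusted p = 4.86e-26). Neither receptor nor exporter was near its counting floor in the hybrid.

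The upstream regions of these 2 genes are shown because all 5 a-specific genes held the same 7 letters, part of the binding sequence known for alpha2. The motif searched was CATGTAA on both strands of the 300 bases before the start codon. It was found in 5 of 5 a-specific windows and in 4.07% of 4325 windows, those of all gene pairs matched to the annotation. The sequences are RefSeq's R64 assembly of the BY-type reference strain, 5′ to 3′ in the direction of the gene, with the motif in capitals. The build behind the deposited counts is not given in the sources used here, and the RM sequence was not used. STE2 lies on the plus strand, at chrVI:82291-82417 for the stretch shown, and STE6 on the minus strand, at chrXI:46441-46567; the motif begins 229 and 212 bases before their start codons.
STE2: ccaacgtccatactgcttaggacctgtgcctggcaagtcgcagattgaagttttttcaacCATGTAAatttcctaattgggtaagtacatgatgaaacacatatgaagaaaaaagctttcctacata
STE6: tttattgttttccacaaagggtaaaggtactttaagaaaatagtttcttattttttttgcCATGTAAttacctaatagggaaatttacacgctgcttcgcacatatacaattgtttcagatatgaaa
A match of these letters is a description and not a measured binding site.

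The secreted and processing members fell as well. BAR1, the protease that degrades alpha-factor, had 7.5 and 8.1 CPM in the hybrid and 726.5 and 813.4 CPM in the RM parent, a log2 difference of -6.61 ± 0.12 (adjusted p = 1.68e-24). MFA1, a gene for a-factor itself, had 1.1 and 2.9 CPM against 189.2 and 210.4 CPM, or -6.51 ± 0.21 (adjusted p = 6.55e-19). In the hybrid MFA1 rested on 3 and 12 reads, close to the counting floor. ASG7, a membrane protein that dampens signalling after mating, was at 7.8 and 6.5 CPM against 40.5 and 44.1 CPM, or -2.59 ± 0.25 (adjusted p = 7.42e-09), the smallest fall of the 5. The BY parent, also of mating type a, had these genes at 3364.1 (STE2), 1611.3 (STE6), 582.6 (BAR1), 435.1 (MFA1) and 29.3 (ASG7) CPM on average.

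The labelled mating types were checked against alpha-specific markers too. STE3, the a-factor receptor of alpha cells, had 5 and 4 hybrid reads beside 1 and 3 reads of the RM parent, too few to test. SAG1, the alpha-agglutinin, had 14.6 and 13.1 CPM against 11.0 and 9.5 CPM and did not pass (adjusted p = 0.336). AFB1, a barrier protein against a-factor known from alpha cells, was lower in the hybrid, with 6.4 and 6.2 CPM against 30.9 and 27.1 CPM (log2 -2.19 ± 0.28, adjusted p = 9.91e-07). The a-specific markers were thus high in the RM parent and low in the hybrid, and the defining alpha-specific receptor was at or near the counting floor in both.

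Genes that both haploid types use fell next: 7 of 8 haploid-specific genes tested were lower in the hybrid, with a median of -3.50. STE18, the gamma subunit of the G protein that carries the pheromone signal, had 0 and 1 reads in the hybrid libraries and 90 and 131 reads in the RM columns. Scaled by the totals this is a ratio of 525 in favour of the RM parent, with a 95% counting interval from 93.2 to 20800. GPA1, the alpha subunit of the same G protein, had 6.8 and 10.5 CPM against 383.5 and 410.8 CPM, a log2 difference of -5.46 ± 0.13 (adjusted p = 1.46e-21). FUS3, the MAP kinase of the pathway, had 2.1 and 1.7 CPM against 220.8 and 234.4 CPM, or -6.90 ± 0.19 (adjusted p = 3.31e-20). STE18 and FUS3 were thus near 0 in the hybrid while GPA1 still had 19 and 44 reads there.

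Other haploid-specific members kept more of their level. FAR1, which arrests the cell cycle in response to pheromone, had 76.9 and 77.2 CPM in the hybrid against 697.8 and 670.4 CPM (log2 -3.15 ± 0.08, adjusted p = 2.40e-21). RDH54, a DNA-dependent ATPase of recombination, had 65.9 and 67.9 CPM against 462.3 and 463.1 CPM (-2.79 ± 0.08, adjusted p = 1.26e-19). NEJ1, a factor of non-homologous end joining, had 12.1 and 20.3 CPM against 63.3 and 73.7 CPM and passed (log2 -2.03 ± 0.21). RME1, the repressor of meiosis, had 2.1 and 1.9 CPM against 25.8 and 32.8 CPM and passed as well (-3.85 ± 0.36). In the hybrid RME1 rested on 6 and 8 reads, close to the counting floor and as low as FUS3. MRS1, a mitochondrial splicing factor on the same list, did not pass.

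**Figure D2:**
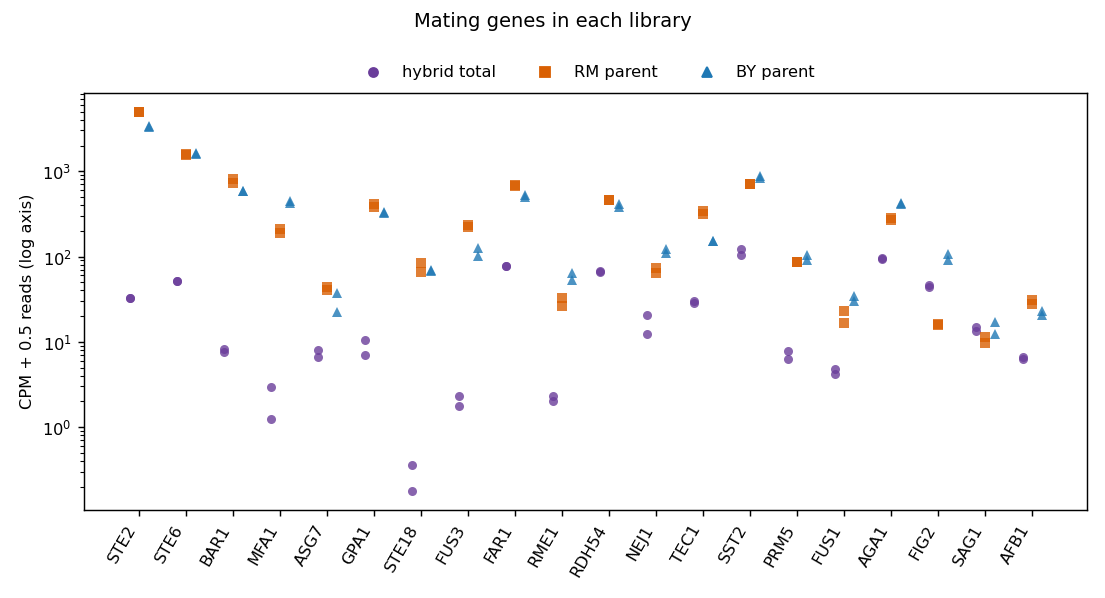
CPM plus 0.5 reads (vertical log axis) of 20 mating genes in each library, with the hybrid total, the RM parent and the BY parent as separate points, 2 libraries each. The a-specific and haploid-specific genes sit lower in both hybrid libraries than in both RM columns, while FIG2 sits higher in the hybrid.

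Downstream of the pathway the direction was mixed: of 16 pheromone response genes tested, 6 were lower, 1 was higher and 9 did not pass, with a median of -0.16. SST2, the regulator that turns the G protein off, had 105.0 and 121.9 CPM in the hybrid against 714.0 and 700.0 CPM (log2 -2.63 ± 0.08, adjusted p = 9.46e-20). PRM5, a pheromone-regulated membrane protein, had 6.1 and 7.6 CPM against 86.1 and 86.9 CPM (-3.62 ± 0.21, adjusted p = 2.19e-13). AGA1, the anchor of a-agglutinin, had 97.2 and 92.5 CPM against 281.9 and 268.4 CPM (-1.54 ± 0.09, adjusted p = 1.97e-13). FUS1, needed for cell fusion, had 4.6 and 4.1 CPM against 22.8 and 16.4 CPM and fell by 2.16 ± 0.35 on the log2 scale. KAR4, a transcription factor of nuclear fusion too low to test, had 0 hybrid reads beside 10 reads of the RM parent. With the 0 set to 3 reads over the group it was 7.91-fold higher in the RM parent, leaving out the counting error of the 10 reads.

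FIG2, a cell wall adhesin of mating, was the 1 member that rose, with 46.3 and 44.2 CPM in the hybrid against 15.5 and 15.8 CPM (log2 1.53 ± 0.22, adjusted p = 3.69e-06). Inside the hybrid its BY allele had 78.2 and 70.9 CPM and its RM allele 14.8 and 18.0 CPM, each scaled to its own column. The RM allele of FIG2 was thus at the level of the RM parent in the diploid, and the total was raised by BY reads. The pheromone response element TGAAACA, searched on both strands, was in 9 of 16 windows of this list and in 7.14% of all windows. Of the 9 genes 4 were lower and none was higher, beside 6 lower and 1 higher of all 16.

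Regulators of filamentous growth, which share part of the MAP kinase pathway, were also lower: 4 of 6 genes of the flocculation and adhesion list fell and none rose, by edgeR and by DESeq2 alike, and the median was -0.83. At an unadjusted p under 0.05 edgeR had 5 lower and none higher. TEC1, the transcription factor that pairs with Ste12 on filamentation genes, had 29.5 and 28.2 CPM against 318.0 and 345.3 CPM (log2 -3.53 ± 0.11, adjusted p = 1.06e-19). MSB2, the signalling mucin at the head of that pathway, had 288.0 and 264.4 CPM against 893.6 and 855.0 CPM (-1.67 ± 0.07, adjusted p = 6.03e-17). PHD1, another filamentation regulator, fell by 0.62 ± 0.13 on the log2 scale. SRL3, a relative of the cell cycle repressor Whi5, was among the 12 largest falls outside the lists, with 21.4 and 21.8 CPM against 144.3 and 165.1 CPM (-2.84 ± 0.14, adjusted p = 7.64e-15).

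In the opposite direction, enzymes that cut daughter cells from their mothers were much higher in the hybrid. Of 16 genes of daughter cell separation tested, 10 were higher, 3 were lower and 3 did not pass, with a median of 0.50. DSE2, a secreted daughter-specific protein related to glucanases, had 778.2 and 776.7 CPM in the hybrid and 69.9 and 66.8 CPM in the RM parent, a log2 difference of 3.51 ± 0.09 (adjusted p = 2.32e-21). DSE1, a daughter-specific protein of cell wall metabolism, had 172.3 and 175.9 CPM against 13.2 and 19.5 CPM (3.39 ± 0.16, adjusted p = 2.21e-15). SCW11, a glucanase, had 381.3 and 349.0 CPM against 61.8 and 56.7 CPM (2.62 ± 0.10, adjusted p = 5.98e-17). CTS1, the endochitinase of the septum, had 2201.4 and 2136.7 CPM against 398.9 and 350.3 CPM (2.54 ± 0.07, adjusted p = 9.39e-21).

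All 4 are among the 12 largest rises, and in all 4 both alleles stood at similar levels inside the hybrid. The BY allele of DSE2 had 735.4 and 731.1 CPM there and its RM allele 820.3 and 821.5 CPM. The RM allele of DSE2 alone was thus far above the 69.9 and 66.8 CPM of the RM parent. For CTS1 the alleles had 2018.1 and 1878.3 CPM (BY) and 2381.9 and 2390.7 CPM (RM), below the 5850.5 CPM of the BY parent. The hybrid lay between the parents for all 4 genes, with BY parent means of 1626.9 (DSE2), 588.5 (DSE1) and 659.3 (SCW11) CPM.

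The members of the list that fell were regulators and not wall enzymes. AMN1, an antagonist of mitotic exit, had 249.5 and 246.9 CPM in the hybrid against 499.1 and 493.3 CPM (log2 -1.0 ± 0.07, adjusted p = 9.10e-12). The BY parent had AMN1 at 1057.4 and 1124.9 CPM, so the hybrid lay below both parents for this gene. RME1, given above, was the second, and ASH1, a daughter-specific repressor, fell by 0.37 on the log2 scale to 212.5 and 242.6 CPM from 276.8 and 312.5 CPM.

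A different kind of rise was seen in the other 8 of the 12 largest. In each of them at least 80% of the hybrid reads came from the BY allele, and the RM allele stayed low in the hybrid, at 62.6 CPM or less. DNF2, a phospholipid flippase, had 189 and 310 hybrid reads beside 0 and 0 in the RM columns. With the 0 set to 3 reads over the group it was 70.1-fold higher in the hybrid, leaving out the counting error of the hybrid reads. RSC3, a subunit of the RSC chromatin remodeller, had 242 and 308 reads against 2 and 0, a ratio of 116 with a 95% counting interval of 31.9 to 959. YJR142W, a gene with no name in the annotation, had 125 and 163 reads against 0 and 1, a ratio of 121 (21.6 to 4810). All 3 were also at or next to 0 for the RM allele inside the hybrid, between 0.0 and 0.7 CPM. For such genes an RM allele without transcript and RM reads that were not assigned to the RM allele cannot be told apart in these counts.

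The other 5 had more RM reads, but whether some RM reads went unassigned was not tested for them either. YBT1, a vacuolar ABC transporter, had 511.9 and 501.8 CPM in the hybrid against 16.2 and 8.2 CPM in the RM parent (log2 5.41 ± 0.14, adjusted p = 9.85e-21). Its BY allele in the hybrid had 1013.7 and 996.8 CPM, close to the 911.4 CPM of the BY parent, and its RM allele 17.7 and 15.2 CPM. RPL14B, which encodes a protein of the large ribosomal subunit, had 859.3 and 825.2 CPM against 30.2 and 34.7 CPM (4.69 ± 0.10, adjusted p = 1.23e-22). Here too the RM allele was low in the hybrid, at 46.6 and 62.6 CPM, beside 1684.5 and 1601.0 CPM for the BY allele.

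ERG29, a gene of ergosterol synthesis, had 70.8 and 56.9 CPM against 6.6 and 6.9 CPM (log2 3.21 ± 0.26, adjusted p = 2.01e-10), the latter from 9 and 11 reads. WHI4, an RNA-binding relative of the cell size regulator Whi3, had 244.9 and 258.9 CPM against 42.7 and 41.6 CPM (2.58 ± 0.11, adjusted p = 6.24e-16). MRH1, a plasma membrane protein, had 242.4 and 230.7 CPM against 44.9 and 37.2 CPM (2.53 ± 0.12, adjusted p = 2.21e-15). The BY allele supplied 88.8% (ERG29), 92.3% (WHI4) and 91.9% (MRH1) of the hybrid reads.

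**Figure D3:**
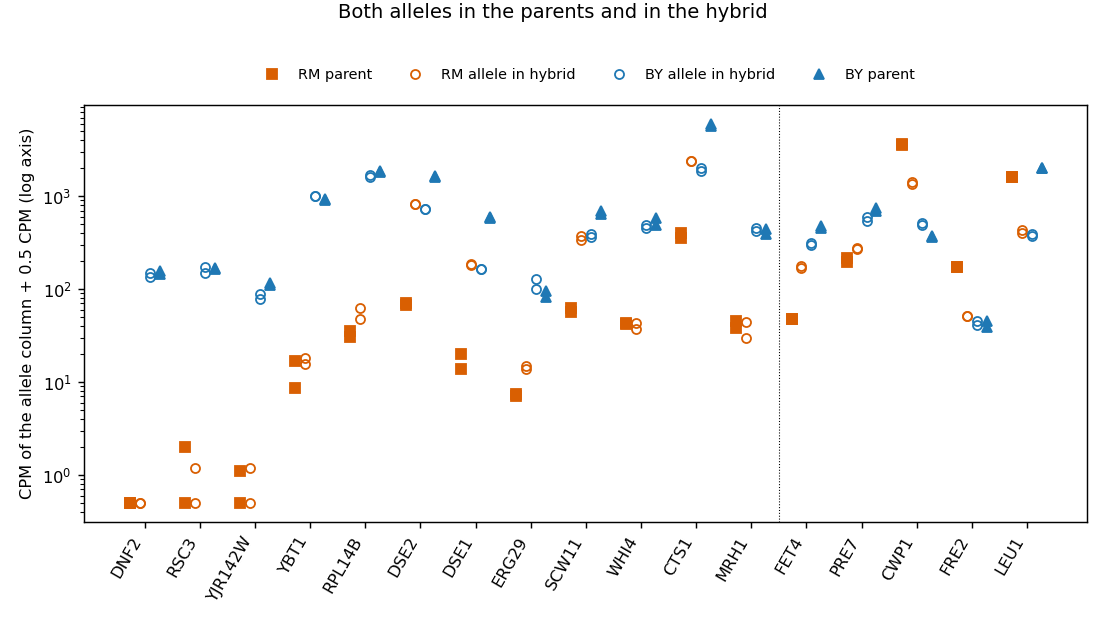
CPM of each allele column plus 0.5 CPM (vertical log axis) for the 12 largest rises, left of the dotted line, and for 5 further genes, with the RM parent, both alleles in the hybrid and the BY parent as separate points, 2 libraries each. For DSE1, DSE2, SCW11, CTS1, FRE2 and LEU1 the open circles of both alleles lie together, while for DNF2, YBT1 and RPL14B the RM allele lies near the RM parent and the BY allele near the BY parent.

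Across all genes the BY share of hybrid reads had a median of 49.8%, and 51 of 4275 genes (1.19%) had at least 80% BY reads. Among the 115 genes at least 2-fold higher in the hybrid the median share was 75.8%, and 44 (38.3%) had at least 80% BY reads. Among the 91 genes at least 2-fold lower the median was 48.6%, and 61 (67.0%) had a share between 40% and 60%, as did 3604 (84.3%) of all genes tested. BY reads are part of the hybrid total, so these shares are a description and were not tested.

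The strain markers LYS2, MET17 and HAP1 also differed between the hybrid and the RM parent. LYS2, of lysine synthesis, had 310.4 and 323.2 CPM in the hybrid against 543.2 and 555.7 CPM in the RM parent (log2 -0.79 ± 0.07, adjusted p = 3.86e-10). Inside the hybrid its BY allele had 625.6 and 652.0 CPM and its RM allele had 0 reads in both libraries, which allows up to 2.12 and 1.42 CPM for the RM allele there. In the co-culture LYS2 averaged 598.5 CPM in the BY parent and 549.5 CPM in the RM parent. RM reads of LYS2 were thus missing only in the hybrid, whose RM genome came from RM11-1alpha and not from RM11-1a. MET17, of sulfur assimilation, which is deleted in BY4741, had 62.7 and 79.4 CPM against 172.2 and 188.4 CPM (-1.33 ± 0.11, adjusted p = 6.17e-10), with 0 reads in the BY parent. MET17 overlaps another annotated gene and the counting states no strand, so its level is uncertain. HAP1, a heme-responsive activator whose coding end carries a Ty1 insertion in BY-type strains, had 390.2 and 402.3 CPM against 291.5 and 267.1 CPM (0.51 ± 0.07, adjusted p = 4.87e-06).

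**Figure D4:**
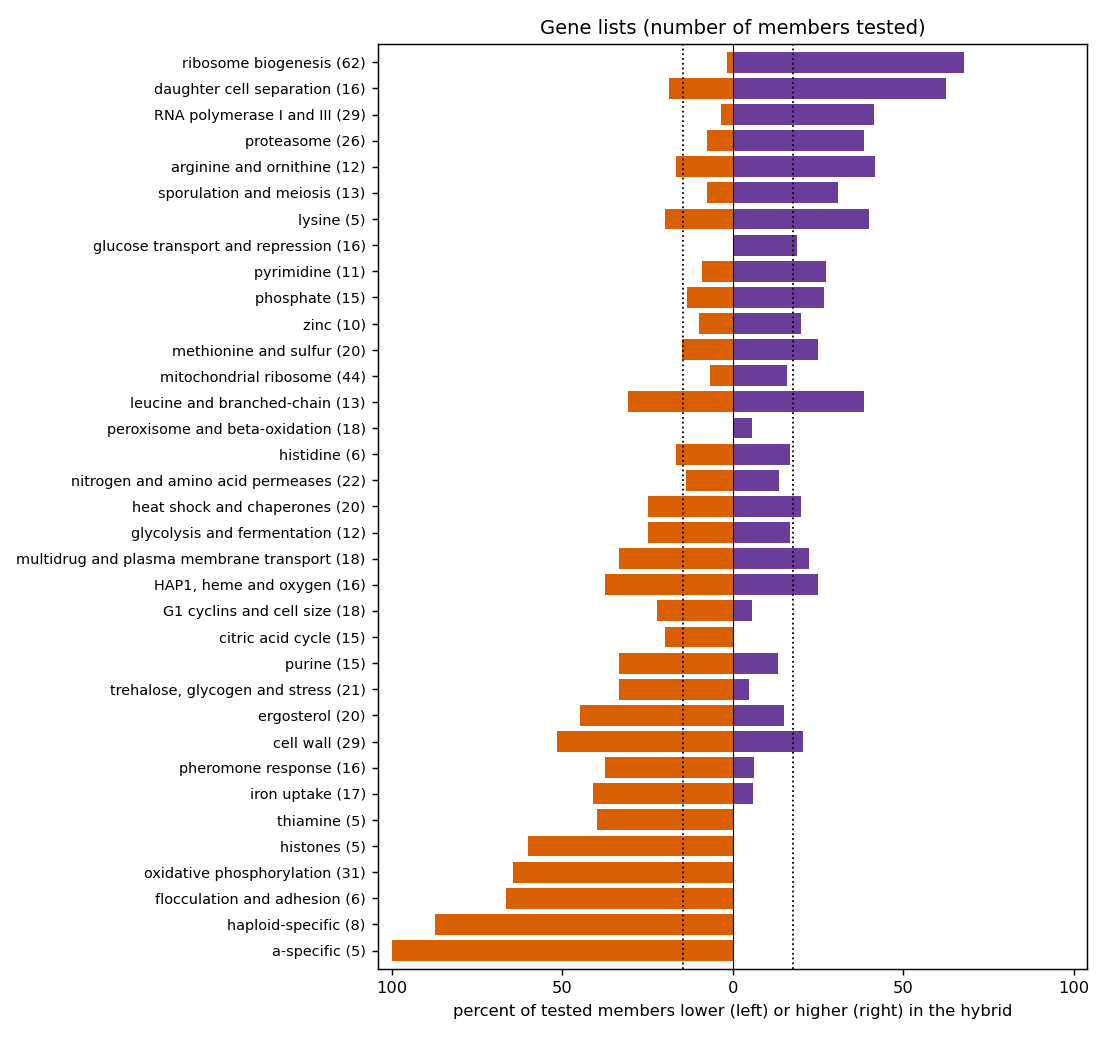
Percent of tested members of each gene list that were lower (left, orange) or higher (right, purple) in the hybrid, with the number tested in parentheses and dotted lines at the shares over all genes, 14.7% and 17.7%. Ribosome biogenesis and daughter cell separation have the longest bars on the right, and a-specific and haploid-specific genes on the left.

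Among genes of branched-chain amino acids, LEU1, OAC1 and BAT1 were lower in the hybrid than in the RM parent, and the list as a whole was split. Of 13 genes of the list, 5 were higher, 4 were lower and 4 did not pass, with a median of 0.07. LEU1, isopropylmalate isomerase, had 403.7 and 393.5 CPM in the hybrid and 1591.4 and 1588.3 CPM in the RM parent, a log2 difference of -2.0 ± 0.06 (adjusted p = 8.89e-20). OAC1, the mitochondrial exporter of the leucine precursor isopropylmalate, had 209.0 and 220.2 CPM against 836.2 and 829.8 CPM (-1.95 ± 0.07, adjusted p = 1.55e-18). BAT1, the mitochondrial branched-chain aminotransferase, had 611.2 and 604.6 CPM against 1667.2 and 1459.8 CPM (-1.36 ± 0.06, adjusted p = 2.21e-15).

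The BY parent had LEU1, OAC1 and BAT1 at 2008.7, 912.4 and 1681.5 CPM on average, so each hybrid library lay below both parents for these 3 genes. Both alleles of LEU1 were low in the hybrid, at 376.6 and 390.6 CPM (BY) and 430.3 and 396.3 CPM (RM). TAT1, a permease for branched-chain and aromatic amino acids, was higher, with 706.6 and 746.1 CPM against 334.2 and 364.2 CPM (1.06 ± 0.07, adjusted p = 2.17e-12), but it overlaps an antisense RNA gene and its strand is not known here. LEU3, the activator of LEU1 and BAT1, did not pass.

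The upstream stretches of LEU1 and BAT1 are shown because they were the members of the list that held the pattern searched for Leu3. That pattern was CCGG and CCGG with any 2 bases between. Other forms of a Leu3 site were not searched, so windows without this pattern may still hold one. The pattern was in 2 of 13 windows of the list and in 0.185% of all windows. Both genes were among the 4 that fell. Capitals mark the pattern, and the sequences are from R64, LEU1 on the minus strand at chrVII:478800-478929 and BAT1 on the plus strand at chrVIII:517325-517454.
LEU1: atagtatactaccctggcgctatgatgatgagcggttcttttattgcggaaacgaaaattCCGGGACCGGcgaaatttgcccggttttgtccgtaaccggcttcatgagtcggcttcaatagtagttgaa
BAT1: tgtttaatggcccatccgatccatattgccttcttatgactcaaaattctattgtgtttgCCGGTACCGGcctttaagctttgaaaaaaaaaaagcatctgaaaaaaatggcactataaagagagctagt

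Genes that build ribosomes were mostly higher in the hybrid. Of 62 ribosome biogenesis genes tested, 42 were higher in the hybrid, 1 was lower and 19 did not pass, with a median of 0.34; DESeq2 called 27 higher and 1 lower. SPB1, a methyltransferase of ribosomal RNA, had 462.8 and 481.7 CPM against 147.9 and 158.8 CPM (log2 1.62 ± 0.08, adjusted p = 8.30e-15). UTP22, a component of the small subunit processome, had 243.5 and 238.8 CPM against 86.1 and 75.0 CPM (1.59 ± 0.10, adjusted p = 1.41e-12). NOP4, a nucleolar protein of large subunit assembly, had 554.6 and 516.1 CPM against 269.4 and 268.4 CPM (0.99 ± 0.07, adjusted p = 2.38e-11).

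The alleles of these genes were unequal inside the hybrid. UTP22 had 399.6 and 399.3 CPM for the BY allele in the hybrid and 89.7 and 81.1 CPM for the RM allele, while NOP4 had 698.8 and 637.0 CPM (BY) and 412.6 and 397.3 CPM (RM). SSF1, of large subunit maturation, was 1.58 ± 0.12 higher on the log2 scale, but it has a near-identical copy elsewhere in the genome and reads could be shared. Most of the list moved less, and BRX1, a large subunit assembly factor, was the single member to fall, by 0.53 on the log2 scale. The letters GATGAG, the core of the PAC element of such genes, were found on either strand in 57 of 62 windows and in 18.1% of all windows. Of the 57 genes with the letters 37 were higher and 1 was lower, beside 42 higher and 1 lower of all 62. Whether the letters go with the direction was not tested.

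RNA polymerases I and III, which make ribosomal and transfer RNA, showed the same direction in fewer members. Of 29 subunits and factors tested 12 were higher, 1 was lower and 16 did not pass, with a median of 0.22. DESeq2 called 7 higher and none lower (1 lower at an unadjusted p under 0.05), and 2 were lower without the RM column of co-culture replicate 1. RPC53, a subunit of polymerase III, had 243.1 and 246.5 CPM against 164.1 and 162.6 CPM (log2 0.58 ± 0.08, adjusted p = 4.07e-06). RPA34, a subunit of polymerase I, had 611.2 and 557.2 CPM against 452.7 and 439.1 CPM (0.39 ± 0.07, adjusted p = 5.59e-05). RRN11, of the core factor of polymerase I, rose by 0.61 ± 0.09 and lies on chromosome XIII. The mitochondrial ribosome gave no such count: 7 of 44 members were higher and 3 lower, DESeq2 called none in either direction (4 higher and 3 lower at an unadjusted p under 0.05), and between 1 and 6 were higher when a library was left out (1 without the RM column of co-culture replicate 1, 2 without hybrid replicate 2, 4 without hybrid replicate 1). Between 0 and 4 were lower, with 0 without hybrid replicate 1 and 1 without the RM column of co-culture replicate 2.

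The proteasome, which degrades ubiquitin-tagged proteins, had 10 of 26 genes higher, 2 lower and 14 not past the test, with a median of 0.14. DESeq2 called 4 higher and 1 lower, and 1 was lower without hybrid replicate 1 and also without the RM column of co-culture replicate 2. RPN4, the activator of proteasome genes and itself short-lived, had 186.2 and 175.5 CPM in the hybrid against 57.4 and 41.0 CPM (log2 1.89 ± 0.13, adjusted p = 5.31e-12). PRE7, a subunit of the catalytic core, had 433.9 and 402.1 CPM against 215.7 and 195.9 CPM (1.02 ± 0.08, adjusted p = 9.80e-11). RPT2, an ATPase of the regulatory particle, had 156.6 and 168.8 CPM against 117.8 and 124.1 CPM (0.43 ± 0.10, adjusted p = 0.00108). Outside RPN4 and PRE7 no called member of the list rose by more than 0.43 on the log2 scale.

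For RPN4 the BY allele had 330.0 and 322.6 CPM in the hybrid and the RM allele 44.5 and 30.8 CPM, the latter at the level of the RM parent. PRE7 was likewise unequal, with 594.0 and 538.2 CPM for the BY allele and 276.3 and 268.3 CPM for the RM allele. The stretch upstream of PRE7 is shown for the proteasome element that Rpn4 is known to bind, GGTGGCAAA, present on either strand in 20 of 26 windows and in 1.27% of all windows. Of those 20 genes 9 were higher and 2 were lower, beside 10 higher and 2 lower of all 26. PRE7 is on the plus strand, R64 chrII:141100-141186, with the element in capitals 87 bases before the start codon.
PRE7: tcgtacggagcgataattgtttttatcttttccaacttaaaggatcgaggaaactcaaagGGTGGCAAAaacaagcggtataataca

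Respiratory genes were lower in the hybrid by small amounts. Of 31 genes of oxidative phosphorylation tested, 20 were lower, none was higher and 11 did not pass, with a median of -0.29. DESeq2 called 12 lower and none higher, and at an unadjusted p under 0.05 edgeR had 22 lower and 1 higher; 1 was higher without hybrid replicate 1. HAP4, the activator of respiratory genes, had 282.7 and 337.5 CPM against 507.2 and 513.5 CPM (log2 -0.71 ± 0.08, adjusted p = 4.22e-08). COX13, of cytochrome c oxidase, had 360.6 and 356.4 CPM against 543.2 and 605.5 CPM (-0.68 ± 0.07, adjusted p = 9.97e-09). QCR7, of the cytochrome bc1 complex, had 433.6 and 423.1 CPM against 645.5 and 647.1 CPM (-0.59 ± 0.06, adjusted p = 2.71e-08). The BY parent had HAP4, COX13 and QCR7 at 237.4, 293.7 and 260.7 CPM, lower than the hybrid in each case.

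Of 15 genes of the citric acid cycle 3 were lower and none was higher (4 and 1 at an unadjusted p under 0.05 in edgeR; 2 and 0 by DESeq2). MAE1, the mitochondrial malic enzyme, had 922.7 and 874.0 CPM against 1740.1 and 1709.3 CPM (log2 -0.94 ± 0.06, adjusted p = 5.97e-13), and IDH1, a subunit of isocitrate dehydrogenase, fell by 0.52 ± 0.10. Among 16 genes of heme and oxygen response, 4 were higher and 6 lower, while DESeq2 called 4 and 3. TIR1, a cell wall mannoprotein of cold and low oxygen, had 75.8 and 64.5 CPM against 213.5 and 209.8 CPM (-1.61 ± 0.10, adjusted p = 2.22e-12). HMX1, heme oxygenase, had 69.4 and 65.7 CPM against 125.9 and 158.1 CPM (-1.08 ± 0.12, adjusted p = 7.01e-08). ANB1, a form of translation factor eIF5A used at low oxygen, was at 10.7 and 10.5 CPM against 35.3 and 27.1 CPM, but has a near-identical copy.

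Genes of ergosterol, the main yeast sterol, split 3 higher and 9 lower among 20 tested, with a median of -0.09. Of the 20 genes 5 lie on chromosome XIII, and without that chromosome 2 were higher and 7 lower, with a median of -0.2. DESeq2 called 2 higher and 5 lower, and 5 were lower without the RM column of co-culture replicate 2. ERG20, farnesyl pyrophosphate synthetase, had 1270.9 and 1130.7 CPM against 1839.4 and 1748.4 CPM (log2 -0.58 ± 0.06, adjusted p = 2.71e-08). ERG25, a C-4 methyl sterol oxidase, had 1507.2 and 1487.9 CPM against 2140.5 and 2002.3 CPM (-0.47 ± 0.06, adjusted p = 2.72e-07). ERG11, the target of azole drugs, had 1297.9 and 1257.9 CPM against 1700.3 and 1647.6 CPM (-0.39 ± 0.06, adjusted p = 3.84e-06).

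Iron uptake moved down with 1 large exception. Of 17 genes 7 were lower, 1 was higher and 9 did not pass, with a median of -0.27. FRE2, a ferric reductase, had 48.1 and 45.9 CPM in the hybrid against 171.5 and 171.4 CPM (log2 -1.87 ± 0.11, adjusted p = 6.89e-13). ARN1, a siderophore transporter, had 185.1 and 168.1 CPM against 363.6 and 367.3 CPM (-1.06 ± 0.08, adjusted p = 4.46e-11). FET4, a low-affinity iron transporter on chromosome XIII, rose, with 245.3 and 232.4 CPM against 47.1 and 47.3 CPM (2.34 ± 0.11, adjusted p = 3.66e-15). The letters TGCACCC, the core of the Aft1 recognition sequence, were on either strand of 9 of 17 windows and of 1.39% of all windows. Of the 9 genes 4 were lower and 1 was higher, beside 7 lower and 1 higher of all 17.

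For FRE2 both alleles stood at the BY parent's level in the hybrid, at 45.2 and 40.5 CPM (BY) and 50.9 and 51.2 CPM (RM), with 41.6 CPM in the BY parent. FET4 showed a partial pattern, with 313.5 and 299.0 CPM for the BY allele and 178.1 and 166.9 CPM for the RM allele. Its RM allele in the hybrid was thus above the RM parent and below the BY allele. Of 10 zinc genes 2 were higher and 1 lower; ZRT1, the high-affinity zinc transporter, had 525.4 and 496.5 CPM against 264.2 and 258.9 CPM (log2 0.96 ± 0.07, adjusted p = 4.12e-11), above the 277.8 CPM of the BY parent as well.

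Of 29 cell wall genes 15 fell, 6 rose and 8 did not pass, with a median of -0.22, and DESeq2 called 10 lower and 5 higher. CWP1, a wall mannoprotein of the birth scar, had 967.2 and 924.7 CPM against 3522.8 and 3622.8 CPM (log2 -1.92 ± 0.06, adjusted p = 9.47e-20). Its RM allele in the hybrid, at 1417.4 and 1354.4 CPM, was below the RM parent and above the BY allele, at 510.1 and 487.5 CPM. CWP2, its neighbour on chromosome XI, had 3978.1 and 4144.3 CPM against 6716.6 and 7343.2 CPM (-0.79 ± 0.06, adjusted p = 3.43e-11). CHS3, the chitin synthase of most wall chitin, rose, with 357.1 and 351.9 CPM against 139.9 and 130.4 CPM (1.39 ± 0.08, adjusted p = 7.75e-13). Of its hybrid reads 85.0% came from the BY allele, and its RM allele in the hybrid had 108.8 and 102.9 CPM.

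Heat shock genes were called in both directions, 45.0% of them beside 32.3% of all genes tested. Their median was -0.04, and of 20 tested 5 fell and 4 rose, while 3 fell without the RM column of co-culture replicate 2; DESeq2 called 3 lower and 3 higher. HSP30, a plasma membrane stress protein, had 8.5 and 6.5 CPM against 39.0 and 39.7 CPM (log2 -2.42 ± 0.26, adjusted p = 3.38e-08). HSP26, a small chaperone, had 12.5 and 16.3 CPM against 63.3 and 63.0 CPM (-2.10 ± 0.20, adjusted p = 3.55e-09). STI1, a co-chaperone of Hsp90, had 1898.1 and 1859.4 CPM against 1291.8 and 1307.3 CPM (0.53 ± 0.06, adjusted p = 2.51e-08). All HSP26 and HSP30 values are low in CPM, and those of the BY parent were higher than those of the RM parent, at 94.2 and 82.7 CPM.

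Of 21 genes of trehalose, glycogen and general stress 7 were lower and 1 was higher, with a median of -0.28. That is 38.1% called, beside 32.3% of all genes tested. DESeq2 called 3 lower and none higher, and 4 were lower without the RM column of co-culture replicate 1 and also without hybrid replicate 2. None was higher when hybrid replicate 2 or 1 of the RM columns was left out. YGP1, a secreted stress glycoprotein, had 43.8 and 46.4 CPM against 83.2 and 79.4 CPM (log2 -0.84 ± 0.14, adjusted p = 3.25e-05). TPS2, of trehalose synthesis, had 120.3 and 140.3 CPM against 164.9 and 187.1 CPM (-0.43 ± 0.10, adjusted p = 0.00153).

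Transporters of the plasma membrane changed in both directions. Of 18 multidrug and related transport genes 4 were higher and 6 lower. PDR5, the main drug efflux pump, had 3950.0 and 4028.6 CPM against 2334.8 and 2436.4 CPM (log2 0.74 ± 0.06, adjusted p = 4.46e-11). QDR2, an exporter of drugs, had 161.3 and 165.7 CPM against 53.7 and 62.4 CPM (1.49 ± 0.12, adjusted p = 9.80e-11). TPO4, a polyamine exporter, fell by 0.63 ± 0.08. Of 15 phosphate genes 4 were higher and 2 lower, or 1 lower without hybrid replicate 2 or the RM column of co-culture replicate 1; DESeq2 called 3 higher and 1 lower. VTC3, of vacuolar polyphosphate synthesis, had 1043.0 and 994.0 CPM against 622.0 and 562.6 CPM (0.78 ± 0.06, adjusted p = 1.78e-10). PHO84, the high-affinity phosphate transporter, was 1.05 ± 0.06 higher but overlaps an antisense RNA gene on chromosome XIII.

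Meiosis is open to a/alpha diploids and closed to haploids, and its genes are mostly silent in growing cells. IME1, the master activator of meiosis, had 52 and 89 hybrid reads beside 1 and 1 of the RM parent, a ratio of 29.7 with a 95% counting interval of 8.07 to 248. Its BY allele supplied 82.3% of the hybrid reads, and the haploid BY parent had 73.5 CPM of IME1, above the 18.5 and 21.3 CPM of the hybrid. The RM allele of IME1 had 5.7 and 8.1 CPM in the hybrid, beside 0.7 and 0.6 CPM in the RM parent. IME2, the kinase that acts after IME1, did not pass, with 13.2 and 15.8 CPM against 19.9 and 16.4 CPM (adjusted p = 0.451). SPO11, which makes the breaks of recombination, did not pass either (adjusted p = 0.138), but without the RM column of co-culture replicate 2 it was lower, with a log2 difference of -1.02 (adjusted p = 0.0295).

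Of 13 sporulation genes tested 4 were higher and 1 was lower (38.5% called, beside 32.3% of all genes), and DESeq2 called 1 and 1. Between 1 and 3 were higher when a library was left out, with 1 without the RM column of co-culture replicate 2 and 2 without that of replicate 1, and 2 were lower without that of replicate 2. IME4, an RNA methyltransferase of meiosis, was the lower one, with 83.7 and 75.8 CPM against 259.1 and 258.9 CPM (log2 -1.71 ± 0.09, adjusted p = 6.67e-14). IME4 overlaps RME2, an antisense RNA gene that haploid cells transcribe, and the counting states no strand, so which of the pair was counted cannot be told.

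On chromosome XIII nearly all calls went toward the hybrid. Of 331 tested there 152 were higher (45.9%) and 11 were lower (3.3%), beside 603 higher and 616 lower among the 3944 other genes tested. Those others include names not matched to the annotation, whose chromosome is not known here. The median log2 difference on chromosome XIII was 0.28 with quartiles of 0.10 and 0.50. With TMM or RLE scaling, or with each library left out in turn, this median ranged from 0.26 to 0.31. The medians of the other chromosomes ran from -0.08 on chromosome II, where 75 of 320 genes were lower and 35 higher, to 0.09 on chromosome VIII. Among the named genes on chromosome XIII, ERG29 (88.8%) and FET4 (63.6%) had a BY share of hybrid reads above the 49.8% median of all genes. The other named genes there were below that median, from 37.2% (SCW10) to 43.7% (HXT2), so most of their hybrid reads came from the RM allele. The share over the whole chromosome was not tested. The number of copies of the chromosome was not measured.

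**Figure D5:**
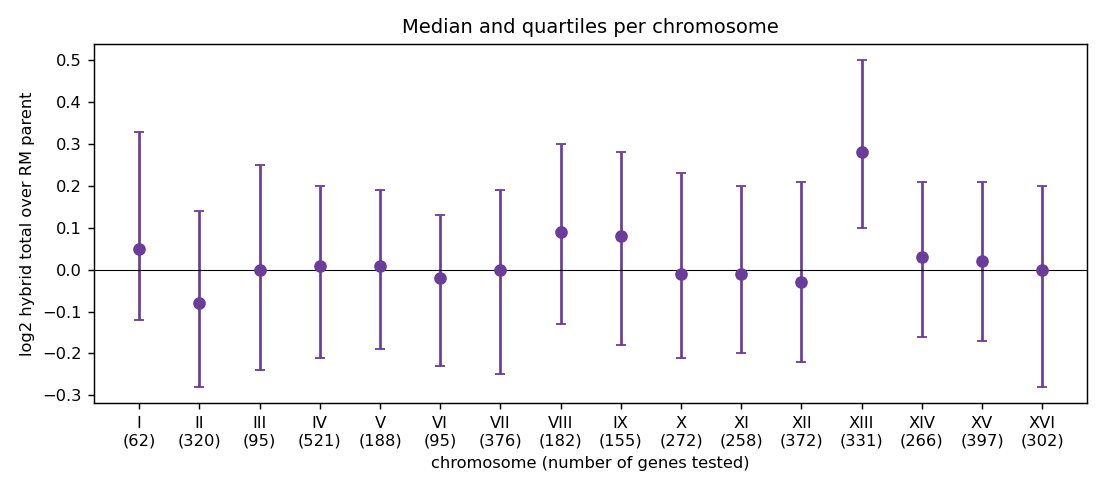
Median log2 level of the hybrid over the RM parent (points) with quartiles of the genes (bars) for each chromosome, with the number of genes tested below the name. Chromosome XIII has a median of 0.28, above all others, which lie between -0.08 and 0.09.

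Several lists contain genes of this chromosome, and their values there sit on top of that shift. ZRC1, a vacuolar zinc transporter, had 1192.2 and 1152.2 CPM against 817.0 and 884.6 CPM (log2 0.46 ± 0.06), and GUA1, GMP synthase, had 2991.3 and 2885.4 CPM against 2215.6 and 2079.2 CPM (0.45 ± 0.06). Of 12 arginine genes 5 were higher and 2 lower, 3 of them lie on chromosome XIII, and without that chromosome 2 were higher and 2 lower. DESeq2 called 2 of the 12 higher, as did the fit without the RM column of co-culture replicate 1, and 3 were higher when 1 hybrid library or the other was left out. ADE17, of purine synthesis, and SCW10, a wall glucanase, lie on chromosome XIII and fell all the same, with 142.7 and 146.1 CPM against 371.7 and 308.1 CPM for ADE17 (-1.23 ± 0.09, adjusted p = 1.85e-11) and a log2 difference of -0.62 ± 0.05 for SCW10.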

How the data were processed

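Messenger RNA was sequenced from 2 hybrid and 2 co-culture libraries. Per the file headers, the deposited files hold whole-number read counts on the SNP sites of each gene pair, with BY and RM reads in separate columns, taken as the authors' raw counts. Tools named in the submitters' processing notes are CASAVA 1.8.2 and Bowtie; SNP set, genome build and use of strand are among the details not given in the sources used here. Per the labels' protocols, each kind of culture had 4 technical replicates and each product went into 2 PCR reactions of 12 cycles; which of these a library stands for is not stated.

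Hybrid counts were the sum of both columns. The columns (2 hybrid totals, 2 RM columns) were fitted with edgeR 4.0.16 (R 4.3.3, limma 3.58.1; glmQLFit, glmQLFTest, two-sided, filterByExpr with a minimum count of 10, 2 residual degrees of freedom), with column totals as library sizes, and Benjamini-Hochberg adjustment at 0.05; scripts were tested on simulated data. DESeq2 1.42.0 was an alternative. Column totals make each level relative, so an increase in some abundant genes lowers others. Of 4442 names, 4325 matched the R64 annotation and 117 did not; 89 overlap another gene. Near-identical copies were found with blastn 2.17.0 (at least 90% identity over 50% of the gene). CPM intervals and floors (95%, 3 reads) cover counting error only.

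The members, gene lists and tests were chosen with earlier results of these data known. Named genes were the 12 largest rises and 12 largest falls past the threshold with a mean of at least 50 reads and no overlap of the groups, the 4 members of each of 36 lists with the smallest p, and strain and mating type markers. Of 863 list entries 633 were analysed; the rest were not analysed here. The result of a single gene of the lists is not reported here.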

Additional observations from a re-analysis of the deposited data

How the results depend on the processing

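With DESeq2 on column totals 741 genes passed (404 higher, 337 lower; 193 list members against 292), and with its own size factors 719 (359 and 360; 190). With a minimum fold change in the test 451 passed (236 and 215; 122 list members), by construction fewer. The cause of the lower DESeq2 counts was not tested. TMM scaling, RLE scaling, no filter, a minimum mean of 50 reads, a fit of 6 columns with the BY parent, and a fit without chromosome XIII gave 1312, 1275, 1400, 1319, 1384 and 1204 genes. Leaving out each library in turn gave 1104 to 1151 genes (597 to 636 higher, 474 to 536 lower). Library numbers are shared by the groups but nothing says that they pair them: with the replicate block 1740 genes passed, and same-numbered libraries deviated together with a correlation of 0.239 over 3676 genes. Of 158 named genes fitted, none that passed the threshold changed direction under any of the 14 alternatives; 139 kept their side of the threshold with DESeq2 on column totals, 118 with the minimum fold change and 143 to 151 without 1 library. The RM columns, with fewer reads than the hybrid, limit low genes, and 2 libraries per group leave small differences uncertain.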

Other observations

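Further gene lists differed little or in few members, and their counts stand beside 17.7% higher and 14.7% lower over all genes tested. Of 15 purine genes 5 were lower and 2 higher; SHM2, a serine hydroxymethyltransferase, had 825.2 and 821.6 CPM in the hybrid against 1237.3 and 1089.4 CPM in the RM parent (log2 -0.50 ± 0.06), and ADE13, adenylosuccinate lyase, fell by 0.43 ± 0.06. Of 20 methionine and sulfur genes 5 were higher and 3 lower (2 and 2 by DESeq2; 2 higher without hybrid replicate 1 and also without the RM column of co-culture replicate 2). MET5, of sulfite reductase, had 45.2 and 47.3 CPM against 14.7 and 12.0 CPM (1.80 ± 0.23, adjusted p = 5.83e-07). ARG4, argininosuccinate lyase, had 89.7 and 99.0 CPM against 36.8 and 42.8 CPM (1.24 ± 0.15, adjusted p = 1.92e-07). The BY allele supplied 82.2% of the hybrid reads of MET5 and 86.5% of those of ARG4. CAR2, of arginine breakdown, fell by 0.81 ± 0.07. Of 18 genes of peroxisomes and fatty acid oxidation 1 was higher and none lower (1 and 1 at an unadjusted p under 0.05 in edgeR); DESeq2 called none, with none at an unadjusted p under 0.05, and no member was higher when any 1 of the 4 libraries was left out. CAT2, a carnitine acetyltransferase, was lower without hybrid replicate 1 (adjusted p = 0.0484) and without the RM column of co-culture replicate 2 (adjusted p = 0.0409).

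Of 18 G1 cyclins and cell size genes 4 were lower and 1 higher (2 and 0 by DESeq2; 0 higher without the RM column of co-culture replicate 1). CLN2, a G1 cyclin, had 134.6 and 138.2 CPM in the hybrid against 232.6 and 265.9 CPM (log2 -0.87 ± 0.09, adjusted p = 1.20e-08), and SWI5, a transcription factor of the end of mitosis, fell by 0.71 ± 0.10. Of 5 histone genes 3 were lower: HTB2, a histone H2B gene, had 1516.5 and 1618.4 CPM against 1890.2 and 2008.6 CPM (-0.31 ± 0.06), while HHF1 and HTA2 have near-identical copies and are uncertain. Among 12 glycolytic and fermentative genes 2 were higher and 3 lower, or 1 higher without hybrid replicate 1; GPD1, glycerol-3-phosphate dehydrogenase, rose by 0.65 ± 0.09 and ALD6, an acetaldehyde dehydrogenase, fell by 0.42 ± 0.06. Of 16 genes of glucose transport and repression 3 were higher and none lower (5 and 2 at an unadjusted p under 0.05 in edgeR; 1 and 0 by DESeq2), or 1 higher without the RM column of co-culture replicate 2 and 1 lower without hybrid replicate 1. HXT2, a hexose transporter on chromosome XIII, was 0.38 ± 0.07 higher. The BY share of hybrid reads was 43.7% for HXT2 and 84.1% for GPD1. The lists of lysine (2 of 5 higher, 1 lower; none higher by DESeq2 or without the RM column of co-culture replicate 2, 1 higher without hybrid replicate 2), histidine (1 of 6 higher, 1 lower), pyrimidine (3 of 11 higher, 1 lower; 1 and 1 by DESeq2), thiamine (2 of 5 lower; 1 by DESeq2, without hybrid replicate 1 or without the RM column of co-culture replicate 2) and nitrogen genes (3 of 22 higher, 3 lower; 1 and 2 by DESeq2, and 1 of the 22 higher without the RM column of co-culture replicate 2) gave few calls.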
